A study of Homo sapiens with 4 samples.

Results

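Transcripts that GENCODE annotates as carrying a retained intron were followed in U87 cells. This human cell line comes from a glioblastoma, and it was transfected with 50 nM of an oligonucleotide and harvested 48 h later. In 2 libraries the cells received a mimic of the tRNA-derived fragment tRF-3009a. In 2 control libraries they received siGL2 as a single strand (ssGL2), a small RNA against luciferase, which these cells do not have as a gene of their own. Each group has a library numbered 1 and a library numbered 2. The labels do not say what the numbers stand for, nor whether libraries of the same group are separate cultures, so p-values measure the spread between these libraries only. The transcripts were chosen by their annotation alone: a row of the deposited table was taken if its transcript identifier has the type retained_intron in GENCODE v29. Transcripts of the SRSF genes, TRA2A and TRA2B (35) were left out. This gave 15358 of 100809 transcripts, or 16.9% of the 90643 that matched the annotation, from 6540 genes. The minimum for a test, an average of 10 normalized counts in the 4 libraries, was reached by 8784 of them from 4626 genes, and 6574 stayed below it.

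An intron is retained when the spliceosome leaves it in a polyadenylated RNA. Many such RNAs stay in the nucleus, where the intron can be removed later (a detained intron) or the RNA degraded, and those that reach the cytoplasm often carry an early stop codon and are open to nonsense-mediated decay. Genes that encode splicing factors and their kinases, such as CLK1, and enzymes that sense metabolites, such as OGT and MAT2A, are known for introns whose removal is regulated. The annotation type is broader than the mechanism: it marks any alternative transcript thought to hold intronic sequence relative to a coding transcript of the gene, and many entries are short fragments.

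Of the 15358 transcripts, 5106 (33.2%) contain from end to end an intron of at least 50 nt that a protein-coding transcript of the same gene removes. The others hold part of an intron, or none by this definition. The 5106 transcripts cover 7642 different introns, and 3108 of them hold a single such intron. These introns are short, with a median length of 301 nt (interquartile range 140 to 692), and their median GC content is 55.2%. The ends are GT and AG in 97.3% of the introns, GC and AG in 1.60%, and AT and AC in 15 introns. A donor of the minor spliceosome, taken as GTATCCTT or ATATCCTT at the first base of the intron on the transcript strand, starts 36 introns (0.471%).

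The splice sites of the introns that the results below turn on are printed from the GENCODE v29 transcript sequences (GRCh38), 5′ to 3′ on the strand of the gene, with the exon in lower case and the intron in capitals. Each donor has 3 exon and 6 intron bases, and each acceptor has 20 intron bases and 3 exon bases. The OGT intron lies at chrX:71544636-71547906 (plus strand, 3271 nt). The CLK1 introns lie at chr2:200860216-200861237 (1022 nt) and chr2:200859747-200860124 (378 nt), on either side of the same exon on the minus strand. The pair around the corresponding exon of its paralog CLK4 lies at chr5:178617435-178618555 (1121 nt) and chr5:178616949-178617343 (395 nt) on the minus strand. OGT and the CLK genes were picked for printing after their values were seen, and so were HNRNPA2B1 and MAT2A.
OGT donor: aagGTAGGT
OGT acceptor: TTTCATTAACCCCTCCTAAGgca
CLK1 upstream intron donor: gggGTATGA
CLK1 upstream intron acceptor: CGCCCACTTGACGTTTCCAGaag
CLK1 downstream intron donor: gatGTATAG
CLK1 downstream intron acceptor: GATTTATTTCTCTCTTTTAGatg
CLK4 upstream intron donor: tcgGTATGA
CLK4 upstream intron acceptor: CTGCCCACTTGCCGTTCCAGaag
CLK4 downstream intron donor: gatGTATAG
CLK4 downstream intron acceptor: TTTTTCCCTCCTCACTCTAGatg
The donors of the downstream introns of CLK1 and CLK4 have the same 9 bases. Their intron part, GTATAG, starts 21 of the 7642 introns (0.275%), against 1023 (13.4%) for GTGAGT and 630 (8.24%) for GTAAGT.

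ARGLU1, a coactivator that also modulates splicing, keeps an intron at chr13:106557132-106559431 (minus strand, 2300 nt). In HNRNPA2B1, an hnRNP protein of pre-mRNA packaging, the intron lies at chr7:26197733-26200571 (minus strand, 2839 nt). MAT2A, which makes S-adenosylmethionine, keeps one at chr2:85542374-85542564 (plus strand, 191 nt). FLNA, the actin cross-linker filamin A, keeps an intron at chrX:154350208-154350908 (minus strand, 701 nt) and SRRM1, an SR-related splicing coactivator, one at chr1:24646790-24648858 (plus strand, 2069 nt).
ARGLU1 donor: gagGTAACG
ARGLU1 acceptor: TAACATATCCTCCCCTTTAGgag
HNRNPA2B1 donor: gagGTAACG
HNRNPA2B1 acceptor: AATGGTATTTTCCTTTGCAGaga
MAT2A donor: cagGTAATG
MAT2A acceptor: CTTAAATCCTGTAATTTCAGggt
FLNA donor: aagGTGAGG
FLNA acceptor: CATGACTCCCTGCTCCTCAGata
SRRM1 donor: aagGTACTA
SRRM1 acceptor: CCTGTCGTGTCTTTTTGCAGaat
ARGLU1 and HNRNPA2B1 also share all 9 donor bases, and GTAACG starts 25 of the 7642 introns (0.327%). Such a match describes letters only, and no site was tested for function.

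The control libraries had 30153387 (number 1) and 28860788 (number 2) recovered reads, and the mimic libraries 33848402 and 33255642. Of 10 genes that mark U87 or mesenchymal glioma cells, 9 reached a summed mean of 10 and S100B was listed at 0. GFAP, the astrocyte filament, stood at 12.5 to 29.7 normalized counts. Of the genes known to be deleted in U87, CDKN2A stood at 0 to 11.2 and MTAP at 23.9 to 41.5. The summed level of 5 immune markers was 10.5 to 15.6 and that of 4 oligodendrocyte markers 11.4 to 18.1. Other lists were higher: 6 neuron markers summed to 427 to 1221, 6 epithelial markers to 351 to 581 and 5 endothelial markers to 227 to 543.

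Retained-intron transcripts were a small share of each library. Of the matched signal, control 1 had 2.78% in them, control 2 had 2.68%, mimic 1 had 2.81% and mimic 2 had 2.75%. The mean was 2.73% ± 0.0705 (SD, n = 2) in the controls and 2.78% ± 0.0418 (SD, n = 2) with the mimic, a difference of 0.0570 percentage points (exact permutation test, two-sided, p = 0.667). The groups overlapped, and 2 libraries against 2 cannot reach a p of 0.05. The 5106 transcripts with a whole intron held 1.17%, 1.19%, 1.14% and 1.21% in the same order. Nonsense-mediated decay transcripts, a neighbouring annotation type, held 2.34% and 2.42% in the libraries numbered 1 and 2.61% and 2.69% in those numbered 2.

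Most of these transcripts were low next to the coding transcripts of their gene. The median of the mean normalized count was 12.7, against 45.8 for protein_coding transcripts, and the median length was 900 against 2002 nt. Signal was concentrated in few transcripts: the 10 highest held 11.9% of it and the 100 highest 31.7%. For 8441 tested transcripts the protein-coding transcripts of the gene also summed to a mean of at least 10. Among these, the median percent of retained-intron transcript plus protein-coding sum was 2.15% (interquartile range 0.803% to 5.84%). It was below 5% for 6046 of them and above 50% for 138. Over 4656 genes, the median percent for all retained-intron transcripts of a gene together was 4.55% and 4.27% in controls 1 and 2, and 4.79% and 4.28% in the mimic libraries. Percents here and below are of normalized counts with no correction for transcript length, so they are not shares of RNA molecules.

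The 10 transcripts of highest mean came from 4 ribosomal protein genes (RPL4, RPL14, RPS23 and RPL11) and from MICAL2, OAZ1, DYNC1H1, IGF2R, HSPA9 and ARGLU1. Per kilobase of transcript, RPS23 was the highest of these 10, at a mean of 18666 normalized counts, and IGF2R the lowest, at 1241. The transcript of OAZ1, the antizyme that inhibits ornithine decarboxylase, read 11514 and 10781 in the controls and 9213 and 10813 with the mimic. None of the 6 transcripts of RPL4, OAZ1, RPL14, RPS23, RPL11 and HSPA9 contains a whole intron of 50 nt. Ribosomal protein genes have many processed copies in the genome, so reads of their transcripts may be shared with those copies. MICAL2, ARGLU1, DYNC1H1 and IGF2R did contain one.

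Among the genes known for regulated introns and splicing, the share taken by the retained-intron transcript ranged from most of the signal to a few percent. The ARGLU1 transcript read 5370 and 5118 in controls 1 and 2 and 5871 and 5127 in mimic libraries 1 and 2, which was 92.7%, 91.8%, 90.7% and 91.8% of the transcript plus its protein-coding sum. The libraries differed little, and ARGLU1 passed no test. DDX5, an RNA helicase that acts in splicing and transcription, stood at 5199, 3966, 5879 and 4753 in the same order, or 32.9% to 42.2%. Its paralog DDX17 ranged from 16.3% to 20.8% and HNRNPH1 from 17.1% to 19.6%. The MAT2A transcript took 1.82% to 4.54%.

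**Figure D1:**
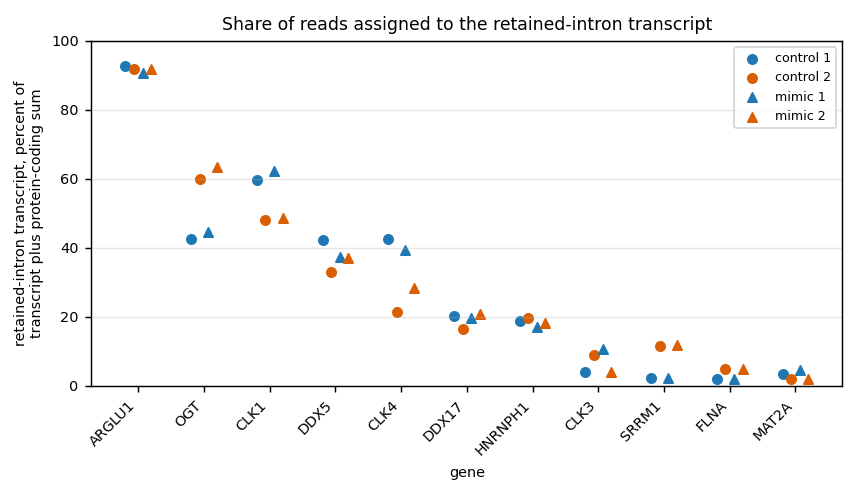
Percent of the retained-intron transcript in the sum of that transcript and the protein_coding transcripts of its gene, in each of the 4 libraries, for 11 genes (circles control, triangles mimic, blue number 1, orange number 2). ARGLU1 stays between 90.7% and 92.7%. The colours separate, for example, for OGT, SRRM1 and FLNA, higher in number 2, and for CLK1, CLK4 and MAT2A, lower in number 2.

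The first comparison, mimic against control, asks whether the tRF-3009a mimic changed transcripts with retained introns. No retained-intron transcript passed the test. With limma and Benjamini-Hochberg adjustment over all 58500 transcripts, 0 of 8784 differed (background 0%), and 77 had an unadjusted p under 0.05. With edgeR, 0 passed and 81 had an unadjusted p under 0.05 (background 0%). The median log2 difference was -0.02 (all transcripts -0.02), with 621 transcripts more than 2-fold higher (7.07%, background 8.6%) and 631 more than 2-fold lower (7.18%, background 8.13%). Values of the groups did not overlap for 2020 (23.0%, background 20.5%).

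Relative to the protein-coding sum of the same gene, the result was the same in kind. None of 8441 ratios passed (background 0%, 79 with an unadjusted p under 0.05), and the median log2 difference of the ratio was 0.01 (all transcripts 0.01). More than 2-fold, 671 ratios were higher (7.95%, background 11.2%) and 627 lower (7.43%, background 10.3%). In counts simulated with the spread within groups, which includes the spread between the numbers, limma recovered 0 of 100 transcripts changed 8-fold and 0 of 100 ratios changed 8-fold. A count of 0 therefore does not show that the mimic left these transcripts as they were.

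Differences within number 1 were not related to those within number 2 across the tested retained-intron transcripts. Across the 8784 transcripts, Pearson's r between the mimic minus control difference in number 1 and that in number 2 was -0.0036, as a description over transcripts that share libraries and, within a gene, reads. Of 2735 transcripts with a mean of at least 50, 1398 (51.1%) lay in the same direction in both. More than 2-fold, 34 did so in the same direction and 22 in opposite ones.

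**Figure D2:**
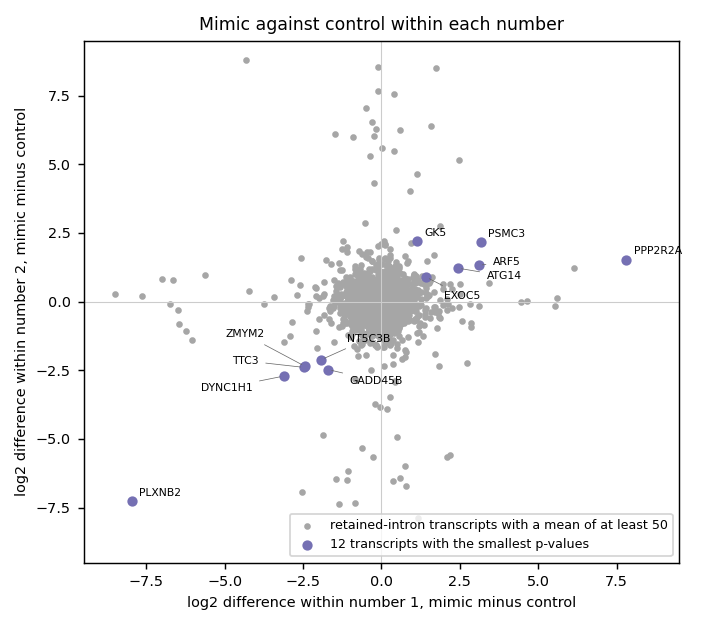
Log2 difference of mimic minus control in the libraries numbered 1 (x axis) and 2 (y axis) for 2735 retained-intron transcripts with a mean of at least 50; purple points are the 12 with the smallest p-values among those whose groups do not overlap. Points along the axes differ in 1 number only, and 51.1% of points lie in the same direction in both.

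The 12 transcripts named by smallest p among those whose groups do not overlap, none of which passed, came from genes of unlike function. The lowest against control were these. A transcript of DYNC1H1, the dynein heavy chain, holding an intron at chr14:102016490-102016765, read 938 in control 1 and 751 in control 2 but 107 in mimic 1 and 114 in mimic 2, a log2 difference of -2.92 ± 0.33 (SE; limma, unadjusted p = 0.0005, adjusted p = 1.0). The sum of the protein-coding DYNC1H1 transcripts was 22797 and 15056 in the controls and 20903 and 16978 with the mimic, so the groups overlapped there, and the log2 difference of the ratio was -2.94. The other retained-intron transcript of DYNC1H1 named here, among the 10 highest of all by mean, read 11349 and 8186 in the controls and 11981 and 9863 with the mimic. Reads of the gene are divided among its 22 retained-intron transcripts, the most for any gene.

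TTC3, a ubiquitin ligase, had a transcript at 441 and 492 in the controls against 79.1 and 92.7 with the mimic. ZMYM2, a zinc finger protein, stood at 136 and 131 against 24.3 and 24.8. GADD45B, a stress-induced growth arrest gene, stood at 98.7 and 142 against 29.7 and 24.8. In each the mimic libraries were lower than both controls, as the rule for naming them requires. The log2 differences were -2.43, -2.40 and -2.09 (limma, unadjusted p = 0.00129, 0.00268 and 0.00705, all with an adjusted p of 1.0). The GADD45B transcript spans the introns at chr19:2476631-2477028 and chr19:2477252-2477487, and its protein-coding sum was 593 and 883 in the controls and 582 and 621 with the mimic. A PLXNB2 transcript (plexin B2, a semaphorin receptor) read 248 and 152 in the controls and was listed at 0 in both mimic libraries.

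In the other direction, a transcript of PSMC3, a subunit of the proteasome cap, stood at 20.9 and 23.6 in the controls and 195 and 109 with the mimic. ARF5, a small GTPase of Golgi traffic, stood at 27.1 and 58.3 against 240 and 148. ATG14, an autophagy factor, stood at 36.4 and 51.5 against 201 and 121. The mimic libraries were higher in all 3, again as the rule requires. The protein-coding sums of PSMC3 (7704 and 5339 against 7678 and 4981) overlapped. PPP2R2A read 0 and 22.4 in the controls and 224 and 66.7 with the mimic. Its log2 difference was 4.67, and it ranged from 2.40 to 6.95 when each library was left out in turn. The 3 others, GK5 (1.67), EXOC5 (1.16) and NT5C3B (-2.02), had log2 differences of the sizes given. By its ratio, ALKBH5, an RNA demethylase, was also named, with a log2 difference of 1.93.

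With DESeq2 on recovered reads, 15 of 6501 retained-intron transcripts passed (5 higher and 10 lower, background 0.416%). Of these 15, 9 were listed at 0 in both libraries of a group and 11 had a 0 in at least 1 library. The transcripts of DYNC1H1 (DESeq2, Benjamini-Hochberg adjusted p = 1.95e-09), TTC3 (2.81e-05), ZMYM2 (0.0325), PSMC3 (0.0439) and PLXNB2 (5.69e-06) were among them. With the number as a replicate block, the DESeq2 call of PLXNB2 was lost (adjusted p = 0.420) and GADD45B was called (adjusted p = 0.0489). Chosen after their values were seen, DBN1 read 63.4 and 91.9 in the controls and 0 in both mimic libraries, whereas DNAJB2 was listed at 0 in both controls and read 66.6 and 49.6 with the mimic. Their genes continued to be read from protein-coding transcripts, with log2 differences of -0.08 for DBN1 and -0.17 for DNAJB2.

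The second comparison sets the 2 libraries numbered 2 against the 2 numbered 1, each number holding 1 control and 1 mimic library. Here 244 of 8784 retained-intron transcripts (2.78%) passed, against 8.32% of all transcripts: 123 were higher in number 2 (1.40%, background 4.42%) and 121 lower (1.38%, background 3.89%). The share was below the background in each class of expression level. Between means of 50 and 200 it was 4.15% (all transcripts 6.34%), between 200 and 1000 it was 15.4% (16.3%), and from 1000 upwards it was 25.6% (31.8%). Values of the numbers did not overlap for 4824 (54.9%, background 58.4%). More than 2-fold, 1148 were higher (13.1%, background 16.5%) and 1471 lower (16.7%, background 16.1%). With edgeR 155 passed (background 6.62%), 153 of them shared with limma, and with DESeq2 1054 passed (background 23.1%), among them all 244. With any library left out no transcript passed. Of the 244, 43 passed under every alternative that kept all 4 libraries, among them the transcripts of OGT, IL6, STC2, WARS1, CAMTA2, FN1, DGKG, PALMD, HSPA9 and FLNA described below. The most were lost with treatment as a block, where 48 remained. Calls lost there included those of TARS1, MARS1, GARS1, SHMT2, GPT2, AURKB and CXCL8 and of a PHGDH transcript. The calls of CLK1, CDK13, HNRNPA2B1, HNRNPU, SRRM1, SON, SREK1, EWSR1, DDX39A, BUB1, MCM5, MCM7, CXCL2, KCP, DDIT4, NFXL1 and the short RPL4 transcript were among those lost there, as were those of both ASNS transcripts and of both CDK1 transcripts.

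As a type, retained-intron transcripts were slightly lower in number 2. The median log2 difference was -0.10 (all transcripts 0.01), with -0.10 in the control pair and -0.09 in the mimic pair. Nonsense-mediated decay transcripts had a median of 0.17 and processed_transcript entries of 0.02. Transcripts with a whole intron had a median of -0.06 and the others of -0.13. The percent of matched signal was 0.0794 percentage points lower in number 2 (exact permutation test, two-sided, p = 0.3333, the smallest that 2 against 2 can give), but 0.0472 higher for transcripts with a whole intron. Without the RPL4 transcript of highest mean the difference was -0.0444, and as a share of retained_intron and protein_coding transcripts alone it was -0.0608. The numbers overlapped in both (exact permutation test, p = 0.667). Of 6 genes for RNAs known to stay largely in the nucleus, 4 were higher in both libraries numbered 2 than in either numbered 1. NEAT1 read 12025 and 10908 in number 1 and 27005 and 26312 in number 2, and MALAT1 read 26742 and 33447 against 42154 and 36370. MEG3 and KCNQ1OT1 were also higher, SNHG14 was lower in number 2 and PVT1 overlapped. OIP5-AS1 and NORAD, which are in the same list but also known in the cytoplasm, were higher in number 2 as well. The part of nuclear RNA in the result was not tested.

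**Figure D3:**
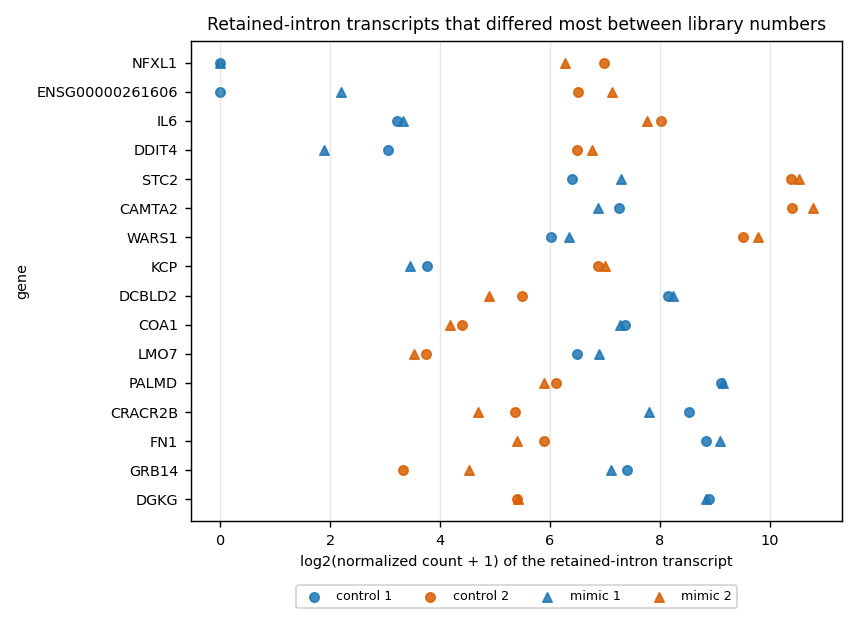
Log2(normalized count + 1) of 16 retained-intron transcripts, the 8 with the largest fold difference between numbers in each direction among those past the test with a mean of at least 50 and no overlap (circles control, triangles mimic, blue number 1, orange number 2). As the rule for choosing them requires, the libraries of number 2 lie apart from those of number 1 for each transcript.

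OGT, the enzyme that attaches O-GlcNAc to proteins and whose detained intron is known to respond to that modification, had the smallest adjusted p of all retained-intron transcripts. In number 1 its transcript read 1917 (control) and 1968 (mimic), and in number 2 it read 8085 (control) and 9037 (mimic). Both libraries numbered 2 were thus far above both numbered 1, with a log2 difference of 2.14 ± 0.08 (SE; limma, adjusted p = 0.00500). The protein-coding sum was higher by less, at 5442 and 5192 against 2597 and 2460, so that the intron-bearing transcript went from 42.5% and 44.4% of the transcript plus coding sum to 59.8% and 63.5%. The log2 difference of the ratio was 1.07 ± 0.18 (SE), which did not pass (limma, adjusted p = 0.257).

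CLK1, a kinase that phosphorylates SR proteins, had a smaller percent in number 2, although its transcript was higher. Its retained-intron transcript read 627 and 557 in number 1 and 1144 and 1104 in number 2, a log2 difference of 0.93 ± 0.12 (SE; limma, adjusted p = 0.0283). The coding sum was 425 and 339 against 1243 and 1169. The percent was therefore lower in number 2, at 47.9% and 48.6% against 59.6% and 62.1%, and the log2 difference of the ratio was -0.74 (limma, adjusted p = 0.336). CLK4 read 101 and 121 in number 1 and 97.5 and 138 in number 2, which overlap, while its percent was 42.5% and 39.5% against 21.4% and 28.2%. CLK3 overlapped in both measures. Of 16 tested transcripts of SR protein kinase genes, CLK1 alone passed (6.25%, background 8.32%). The median log2 difference of the ratio over the 16 was -0.79.

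Genes of regulated introns as a list were mixed. Of 25 tested transcripts, those of OGT, CLK1 and CDK13 were higher in number 2 (12%, background 4.42%). None was lower, and the median log2 difference was 0.01. Relative to the coding sum most were lower in number 2: the ratio was higher for 7 of 24, with a median log2 difference of -0.91. CDK13, a kinase of RNA polymerase II, read 43.6 and 48.6 against 164 and 135, a log2 difference of 1.67 (limma, adjusted p = 0.0365). MAT2A read 340 and 437 in number 1 and 221 and 216 in number 2 (log2 difference -0.82; limma, adjusted p = 0.0841), while its coding sum was higher in number 2.

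Calls among splicing proteins and the spliceosome were near the 2.78% of all retained-intron transcripts (8.32% of all transcripts). The shares were 4.17% for hnRNP proteins, 3.48% for other splicing regulators and 0 of 57 for the core spliceosome. HNRNPA2B1 was lower in number 2, at 987 and 1024 against 1577 and 1629 (log2 difference -0.67; limma, adjusted p = 0.0315), as was its coding sum, at 15665 and 16369 against 27894 and 33047. HNRNPU, a nuclear matrix hnRNP, was higher, at 727 and 904 against 434 and 372 (1.01; adjusted p = 0.0471). These were the only calls among 48 hnRNP transcripts. SRRM1 stood at 59.2 and 66.5 in number 1 and 176 and 179 in number 2 (log2 difference 1.48; limma, adjusted p = 0.0344), although its coding sum was lower in number 2, at 1364 and 1345 against 2736 and 3011. Its percent was 2.12% and 2.16% in number 1 and 11.4% and 11.7% in number 2, with no overlap. The log2 difference of the SRRM1 ratio was 2.57 ± 0.27 (SE; adjusted p = 0.210).

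Of 115 transcripts of other splicing regulators, SRRM1 was higher and those of EWSR1, SREK1 and SON were lower. The SON transcript, from a nuclear speckle protein, read 400 and 411 in number 1 and 229 and 225 in number 2. SREK1, an SR-related protein, read 320 and 402 against 140 and 170. The EWSR1 transcript read 42.6 and 49.5 in number 1 and was listed at 0 in number 2. None of 57 transcripts of the core spliceosome passed, among them SNRNP200, SF3B3 and SF3B1, which had the highest means. Of 39 transcripts of nuclear export, exosome and decay factors, only that of DDX39A, an mRNA export helicase, passed (2.56%, background 8.32%). It read 443 and 455 in number 1 and 221 and 216 in number 2.

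Among the 10 transcripts of highest mean, 4 passed, at a level where 25.6% of retained-intron and 31.8% of all transcripts did. RPL4, a protein of the large ribosomal subunit, read 21910 and 23041 in number 1 and 12242 and 12536 in number 2 (log2 difference -0.86; limma, adjusted p = 0.00839). MICAL2, an enzyme that oxidizes actin, read 8701 and 8132 against 15514 and 17214 (0.96; adjusted p = 0.0129). IGF2R, the receptor for mannose 6-phosphate, read 5035 and 4424 against 11503 and 11142 (1.26; adjusted p = 0.00989). HSPA9, the mitochondrial Hsp70, read 2986 and 2959 against 8334 and 8817 (1.53; adjusted p = 0.00568). In these genes the coding sum moved with the retained-intron transcript: the log2 differences of the ratio were 0.16, -0.03, 0.11 and 0.34.

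The 8 transcripts named for the largest differences upwards included those of IL6, STC2 and WARS1. The IL6 transcript, from the interleukin 6 gene, read 8.32 and 9.01 in number 1 and 258 and 218 in number 2 (log2 difference 4.62; limma, adjusted p = 0.00949). STC2, a secreted glycoprotein, read 83.4 and 155 against 1342 and 1477 (3.62; adjusted p = 0.0161), and WARS1, the tryptophanyl-tRNA synthetase, 63.6 and 80.4 against 735 and 880 (3.47; adjusted p = 0.00903). For all of these the coding sum was also higher: that of IL6 went from 245 and 195 to 10617 and 10510. DDIT4, an inhibitor of mTORC1, read 7.30 and 2.71 against 88.6 and 108, and KCP, a secreted modulator of BMP signals, 12.5 and 9.90 against 117 and 127. A transcript of the locus ENSG00000261606, with no protein-coding transcript, read 0 and 3.60 against 89.6 and 140 (limma, adjusted p = 0.0415). Its call was lost under 6 alternatives that kept all 4 libraries, among them edgeR and treatment as a block. A transcript of NFXL1 was listed at 0 in number 1 and read 126 and 76.4 in number 2.

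CAMTA2, a calmodulin-binding transcription activator, had a coding sum that was higher by far less than the transcript, which contains no whole intron. Its transcript read 152 and 116 in number 1 and 1354 and 1763 in number 2 (log2 difference 3.53; limma, adjusted p = 0.00939), against coding sums of 850 and 940 and of 1227 and 1111. The percent was 15.2% and 11.0% in number 1 and 52.5% and 61.3% in number 2. A further CAMTA2 transcript of this type, chosen after its values were seen, read 735 and 435 against 2573 and 2961.

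In the opposite direction, FN1 (fibronectin) read 456 and 549 in number 1 and 58.3 and 41.1 in number 2 (log2 difference -3.33; limma, adjusted p = 0.0132), and its coding sum was lower by less, at 46987 and 45888 against 79488 and 72444. DCBLD2, a membrane protein, read 283 and 303 against 43.7 and 28.7 (-3.01; adjusted p = 0.0180). DGKG, a diacylglycerol kinase, read 473 and 455 against 41.5 and 41.9 (-3.45; adjusted p = 0.00839), and PALMD 550 and 566 against 68.4 and 58.3 (-3.12; adjusted p = 0.00903). The other 4, CRACR2B, COA1, GRB14 and LMO7, had log2 differences of -3.14, -3.02, -3.34 and -3.06. As the rule for naming them requires, no library of number 2 reached the level of any library of number 1 in these 8.

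For the integrated stress response, which raises amino acid synthesis and import when translation is checked, 10 of 26 tested transcripts were higher in number 2 (38.5%, background 4.42%) and none lower, from SHMT2, PHGDH, ASNS, GPT2, ATF3, STC2 and DDIT4. The ATF3 transcript, from a stress transcription factor, read 52.0 and 33.3 against 390 and 390, and an ASNS transcript, of asparagine synthetase, read 8.32 and 9.0 against 84.1 and 92.5. With treatment as a block, the calls of SHMT2, GPT2 and both ASNS transcripts were lost, as were a PHGDH and a DDIT4 call. Over the 26 the median log2 difference was 2.32, while that of the ratio was -0.62, with 6 of 26 ratios higher. At the median these transcripts were thus higher, with a lower ratio to the coding sum. Adding 1 to each value shrinks the rise of a transcript with few counts and so can lower its ratio. The part of this in the median ratio was not tested. The DDIT4 transcript named above had a ratio difference of -0.56. Its percents nevertheless overlapped, at 0.765% and 0.394% in number 1 and 0.428% and 0.494% in number 2. For SLC3A2 the percent was lower in number 2, at 1.15% and 1.26% against 3.75% and 3.83%. Whether the percent fell across the list was not tested.

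Of 39 transcripts of aminoacyl-tRNA synthetases, 5 were higher (12.8%, background 4.42%) and none lower (TARS1, MARS1, WARS1 and a pair from GARS1). With treatment as a block, only the call of WARS1 remained. The median was 0.91 for the level and 0.05 for the ratio. For NF-kB and cytokine genes, 4 of 16 were higher (25%, background 4.42%) and none lower. These came from CXCL2, CXCL8 and IL6, and CXCL2, a neutrophil chemokine, read 19.8 and 18.1 against 158 and 120. Of these calls, only that of the IL6 transcript named above remained with treatment as a block. The median was 1.38 for the level and -0.56 for the ratio, which was higher for 3 of 16.

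For DNA replication and mitosis, 6 of 39 transcripts were lower (15.4%, background 3.89%) and 1 was higher, with a median of -2.01 for the level and -0.00 for the ratio. BUB1, a kinase of the spindle checkpoint, read 322 and 446 in number 1 and 147 and 139 in number 2, and MCM5, a subunit of the replicative helicase, 218 and 210 against 59.4 and 43.0. CDK1, the mitotic kinase, read 161 and 224 against 28.0 and 26.7. The exception was a MCM7 transcript with a whole intron. It was listed at 0 in both libraries numbered 1 and at 71.7 and 79.3 in those numbered 2. Its coding sum was lower in number 2. All calls of this list were lost with treatment as a block. Of 174 transcripts of cytosolic ribosomal proteins, 5 were higher (2.87%, background 4.42%) and 2 lower (1.15%, background 3.89%), with a median of -0.37. Among all 12 lists, none held a transcript that passed for mimic against control.

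Of the 123 transcripts that were higher in number 2, 115 had a coding sum with a mean of at least 10, and for 102 of these the coding sum differed in the same direction, for 65 by more than 2-fold. The medians were 1.86 for the transcript, 1.27 for the coding sum and 0.43 for the ratio. Of the 121 that were lower, 116 had such a sum, 103 in the same direction and 56 by more than 2-fold, with medians of -2.04, -0.96 and -0.92. Over all 8441, Pearson's r between the differences of the transcript and of the coding sum was 0.418, and it was 0.642 over the 623 transcripts with a mean of at least 200. These r values are descriptions, since both quantities come from the same reads divided among transcripts.

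**Figure D4:**
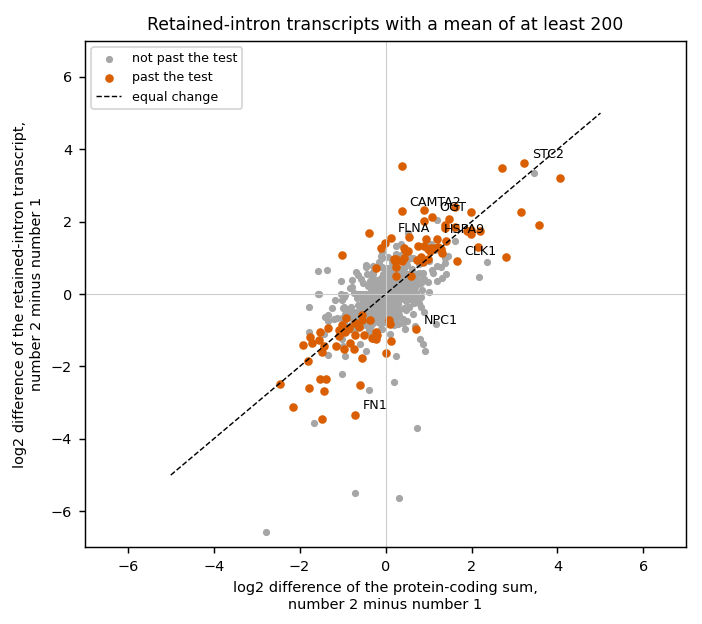
Log2 difference between numbers of the protein-coding sum (x axis) and of the retained-intron transcript (y axis) for 623 transcripts with a mean of at least 200; the 104 past the test are orange and the dashed line marks equal change. Of the orange points, 82 lie within 2-fold of the line, 11 further above it and 11 further below. CAMTA2, FLNA and OGT lie above it and FN1 and NPC1 below it.

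The ratio sets each transcript against the coding sum of its gene, whether or not it holds a whole intron. None of 8441 ratios passed between numbers (limma with Benjamini-Hochberg adjustment, background 0%, smallest adjusted p = 0.138), and 838 had an unadjusted p under 0.05. More than 2-fold, 964 were higher (11.4%, background 15.4%) and 1330 lower (15.8%, background 15.5%), with a median of -0.10 (all transcripts -0.00; nonsense-mediated decay transcripts 0.16). In simulated counts this test recovered 0 of 100 ratios changed 8-fold, so a count of 0 is no measure of how many ratios changed.

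Of the transcripts named next, those of FLNA, TUBB6, RGS3, NPC1, ULK3 and TNFRSF12A contain a whole intron, and those of NDRG1, UPP1, RSRC2, NPIPA1 and the short RPL4 transcript do not. Of the ratios higher in number 2 with the smallest p-values, FLNA is the most abundant. Its transcript read 1553 and 1281 in number 1 and 4303 and 4003 in number 2 (log2 difference 1.56; limma, adjusted p = 0.0132), over coding sums that overlapped, at 81125 and 69919 against 83521 and 80306. Its percent went from 1.88% and 1.80% to 4.90% and 4.75%, and the log2 difference of the ratio was 1.44 ± 0.17 (SE; limma, adjusted p = 0.216). FLNA thus differed in its retained-intron transcript and hardly in its coding sum. A short RPL4 transcript was higher in number 2, at 1530 and 1489 against 647 and 796 (log2 difference 1.07; limma, adjusted p = 0.0284), the opposite of the long one above. TUBB6, a beta tubulin, and RGS3, a regulator of G protein signalling, had ratio differences of 2.19 and 2.63, and NDRG1, a gene known for hypoxia and stress, 3.31.

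Lower ratios in number 2 were found for NPC1, UPP1, ULK3, TNFRSF12A and RSRC2. NPC1, the lysosomal cholesterol transporter, keeps an intron at chr18:23533518-23534445. Its transcript read 567 and 531 in number 1 and 286 and 272 in number 2, while its coding sum was 14386 and 13782 against 23773 and 22519, so the transcript and the coding sum moved in opposite directions. UPP1, uridine phosphorylase, read 679 and 705 against 1308 and 1506, but its coding sum went from 1242 and 1209 to 8905 and 8128, and its percent from 35.4% and 36.8% to 12.8% and 15.6%. ULK3, a kinase of autophagy and Hedgehog signalling, read 540 and 521 against 164 and 257, over coding sums of 569 and 609 against 1028 and 1125. The ratio of NPIPA1 had a log2 difference of -5.97, with a coding sum of 0 and 0.90 in number 1; this gene belongs to a family of near-identical copies, and its value is uncertain.

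Base composition moved with both comparisons. In 4 equal classes of retained-intron transcripts by GC content, from the lowest to the highest, the median log2 difference between numbers was -0.24, -0.22, -0.03 and 0.09 (all transcripts -0.06, -0.03, 0.03 and 0.08). For mimic minus control it was 0.07, 0.04, -0.06 and -0.11 (all transcripts 0.05, 0.02, -0.04 and -0.12). The part of GC content in the results was not tested. By length the medians between numbers stayed between -0.11 and -0.08. Of 30 tested transcripts with a minor-spliceosome donor, none passed between numbers, with a median of -0.35.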

How the data were processed

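Polyadenylated RNA of 4 libraries was sequenced as pairs from directional libraries, per the labels' protocols. Kallisto, DESeq2 and hg38 are listed in the submitters' processing notes, with no version of either tool. The deposited values are a normalized signal for each Ensembl transcript. Judging by those values, the authors scaled the reads of each library by its own factor. Whole reads were recovered for edgeR and DESeq2: 95.6% to 99.7% of low values were whole within a tolerance of 0.1, and no transcript had fewer than 10 reads in all. The annotation release and whether counting used strand are not given in the sources used here. Reads in exons shared by several transcripts are divided among them by estimation, so a value of a single transcript is less certain than a gene's sum. Depth was 28860788 to 33848402 reads, and precision is lowest for transcripts with few reads.

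Of 100809 transcripts, 90643 (89.9%) matched GENCODE v29 (GRCh38) without version, 79288 of them with it, and the rest held 3.25% to 3.56% of the signal. Symbols were found for 21864 of 22031 genes. Transcripts and ratios were tested with limma with a trend on log2(value + 1), two-sided, with Benjamini-Hochberg adjustment at 0.05 over 58500 transcripts with a mean of at least 10 or 50003 ratios. A ratio is the transcript over the sum of the other protein_coding transcripts of its gene. A fold change on the log2(value + 1) scale understates the change of low transcripts.

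The transcripts, the 12 gene lists and the rule for names were chosen with earlier results of these data known. The rule takes the 10 highest means; for mimic against control 6 transcripts and 4 ratios in each direction; for the numbers 8 and 8 in each direction; and the 3 highest means of each list. Within a direction it takes the largest fold differences past the test with a mean of at least 50 and no overlap, filled up with the smallest p. Transcripts of CDK13, EWSR1, SREK1, SON, ATF3, ASNS, CDK1, MCM7, DBN1 and DNAJB2 and the second one of CAMTA2 were picked after their values were seen.

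On simulated counts over 57162 transcripts with the spread within numbers, limma recovered 4 of 100 2-fold and 70 of 100 8-fold changes with 17 false calls. For mimic against control over 56457 transcripts it recovered 0 of 100 and 0 of 100 with 3 false calls. With only the spread left after group and number, over 57423, it recovered 8 of 100 and 79 of 100 with 31. The counts in this last setting held no difference between numbers, and the fit had no block. It therefore does not give the recovery of any test run on these libraries. Alternatives were other pseudocounts, filters, scalings, tools, denominators and annotation matches, blocks, and each library left out. The tools with a block and the shares without the highest transcripts were added after seeing the data. Tests ran in limma 3.58.1 (R 4.3.3), with DESeq2 1.42.0 and edgeR 4.0.16 as alternatives. Other steps ran in Python 3.11.15 (scipy 1.17.1, pandas 2.3.3, numpy 2.4.6), and figures in matplotlib 3.10.9.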

Additional observations from a re-analysis of the deposited data

Results flagged for a closer look

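For transcripts that contain a whole intron, the percent of signal and the median ratio differed between mimic and control in opposite directions in the 2 numbers. Their percent of the matched signal was 0.0347 percentage points lower with the mimic in number 1 (mimic minus control -0.0347) and 0.0225 higher in number 2. The median log2 difference of their ratio to the coding sum was 0.01 (0.0137) in number 1 and -0.04 (-0.0427) in number 2. That of their level was negative in both, at -0.0656 in number 1 and -0.0268 in number 2. With 1 library of each group per number, the difference between the numbers was not tested.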

How the results depend on the processing

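Labels give both groups the numbers 1 and 2, and with 2 pairs whether these pair the libraries cannot be settled. With the number as a replicate block, limma and edgeR passed 0 retained-intron transcripts for mimic against control and limma 0 ratios. DESeq2 passed 15 without the block and 31 with it, 14 in both (all but PLXNB2). For the numbers, the 244 calls became 155 with edgeR (background 6.62%) and 1054 with DESeq2 (background 23.1%). They became 52 with treatment as a block and 79 over matches of the same version. No share over all transcripts is given for these last settings. Of the 244, 97 were transcripts with a whole intron, out of 3374 tested. Fits with a library left out assume that a lone library varies like the others. Of 29 transcripts named by the rule and called between numbers, all kept their direction under every setting run. Those named by the largest differences have numbers that do not overlap, so other pseudocounts or a library left out could not reverse them. The call was lost by 13 with treatment as a block, 12 over matches of the same version, 6 with edgeR and 5 without a filter.

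The median for mimic against control (-0.0151) was -0.0295 at a minimum mean of 50, 0.00746 without a filter, -0.00456 with TMM factors, 0.00516 with edgeR (0.00376 with the block), -0.00115 with DESeq2 (-0.00275 with the block), -0.0561 for whole introns, and -0.0972 to 0.0757 with a library left out. Its sign is therefore not settled. The median ratio (0.0104) was 0.0334 without a filter, -0.0221 for whole introns, and -0.0526 to 0.109 with a library left out. Between numbers the median (-0.0991) was -0.0870 with a pseudocount of 5, -0.0839 at a minimum of 50, -0.121 without a filter, -0.123 with edgeR, -0.120 with DESeq2, -0.0566 for whole introns, and -0.138 to -0.0625 with a library left out. The median ratio (-0.102) was -0.0500 for whole introns and -0.146 to -0.0719 with a library left out. The share of signal, mimic minus control, was -0.00609 for whole introns, and number 2 minus number 1 was 0.0472 for whole introns and -0.160 below a mean of 1000. The causes were not tested. Depth limits transcripts with few reads: of 8784 tested, 757 had a 0 in a library.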
